A study of Petromyzon marinus with 10 samples.

Results

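The data described here are those of 4 assembled loci among the 57134 loci counted in brainstems of injured sea lampreys. Of these loci, 1 is named NFKBIE (MSTRG.17326), 2 carry the name TNFAIP3 (MSTRG.30681 and MSTRG.30682), and 1 is named VLRA (MSTRG.34219). The names are those that the study's list of baclofen genes pairs with the locus numbers. That list holds the loci that differed between these same libraries, so the difference between the groups chose the 4 loci and is given below as a description only. Larval Petromyzon marinus of 5 to 7 years from the river Ulla had received a complete transection of the rostral spinal cord. The brainstem was dissected from animals kept with baclofen in the water (5 libraries) and from injured animals kept without the drug (5 libraries). Baclofen activates GABAB receptors, which bind the inhibitory transmitter GABA and act through G proteins. The transection was common to both groups, no uninjured group was analysed here, and each library was made from brainstems of several animals, so how far single animals differ is unknown. The study's methods and its names for the baclofen libraries place them at an earlier day after injury than the series text does. The day entered no calculation, but all values come from a single time after injury.

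NF-kappa-B proteins are transcription factors of inflammation, cell survival and immune responses. In resting cells they are held in the cytoplasm by inhibitor proteins of the I-kappa-B family, which are degraded when receptors of cytokines or of microbial products are activated. NFKBIE encodes one such inhibitor, I-kappa-B epsilon. TNFAIP3 encodes A20, a ubiquitin-editing enzyme that restrains the signal further upstream, between the receptor and the kinase that marks the inhibitors for degradation. In mammals both genes are themselves induced by NF-kappa-B and form negative feedback. VLRA is of another kind: it encodes one of the variable lymphocyte receptors, antigen receptors of jawless vertebrates that are built from leucine-rich repeats in place of immunoglobulin domains. A mature VLRA gene is assembled in T cell-like lymphocytes by copying repeat cassettes into an incomplete germline gene.

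Libraries held between 12774386 and 19566056 counted fragments, and the size factors that correct for depth ran from 0.772 to 1.22. Of 23794 loci with an adjusted p-value in DESeq2, 82 had one under 0.05 (0.345%), 64 higher with baclofen (0.269%) and 18 lower (0.0756%). Control replicate 1 stood apart: without it 426 loci were past this threshold, of which 302 were lower with baclofen. The fit without control replicate 1 also set a higher filter on low counts, so its tested loci were not the same. With loci divided into 4 equal classes by exon length, those of the longest class lay 0.10 on the log2 scale above those of the shortest class in this library, relative to the mean of all libraries, against −0.06 to 0.06 in the other 9. The neuronal loci CPLX1, MAP6, GABRA5 and CARTPT and the glial or ventricular loci VIM, SCRG1 and SoxE1 were detected in every library, with summed normalised counts of 16496 to 19723 and 11053 to 13041. Among the neuronal loci CPLX1 and MAP6 were past the threshold, both higher with baclofen, and among the glial loci SoxE1 was. These markers could only be taken from loci named in the study's lists of genes that differed with a drug. Those past the threshold were therefore not free outcomes and do not measure neurons or glia.

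NFKBIE was higher with baclofen in every library. Its locus lies on scaffold PIZI01000025.1 of Pmar_germline 1.0 from 4974884 to 4982490 on the plus strand, with 6 exons of 3046 bp in all, the last of which makes up 54.2% of that length. Normalised counts (counts divided by the size factor of the library) were 404, 436, 414, 363 and 445 in baclofen replicates 1 to 5. They were 101, 209, 221, 127 and 198 in control replicates 1 to 5. The groups did not overlap, and the highest control had 221 where the lowest baclofen library had 363. Control replicates 1 and 4 were the low ones of their group, while the baclofen libraries lay close to each other. The group means were 412 ± 32.3 and 171 ± 53.7 (SD, n = 5 each), a coefficient of variation of 7.8% with baclofen and 31.3% in controls. Counting error alone would give 4.8% and 8.0%.

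The fold change of NFKBIE was 2.42 (95% interval 1.92 to 3.05), or 1.27 ± 0.17 on the log2 scale (SE). In the DESeq2 fit made here, on the contrast by which the study's list was chosen, its adjusted p-value was 3.48e-10. It had rank 5 by p-value among the 82 loci, and 7 of these had a larger change. Without control replicate 1, the lowest library, the log2 fold change was 1.13, and in the fits that left out each other library it lay between 1.19 and 1.38. All 10 of these fits kept NFKBIE past the threshold.

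**Figure D1:**
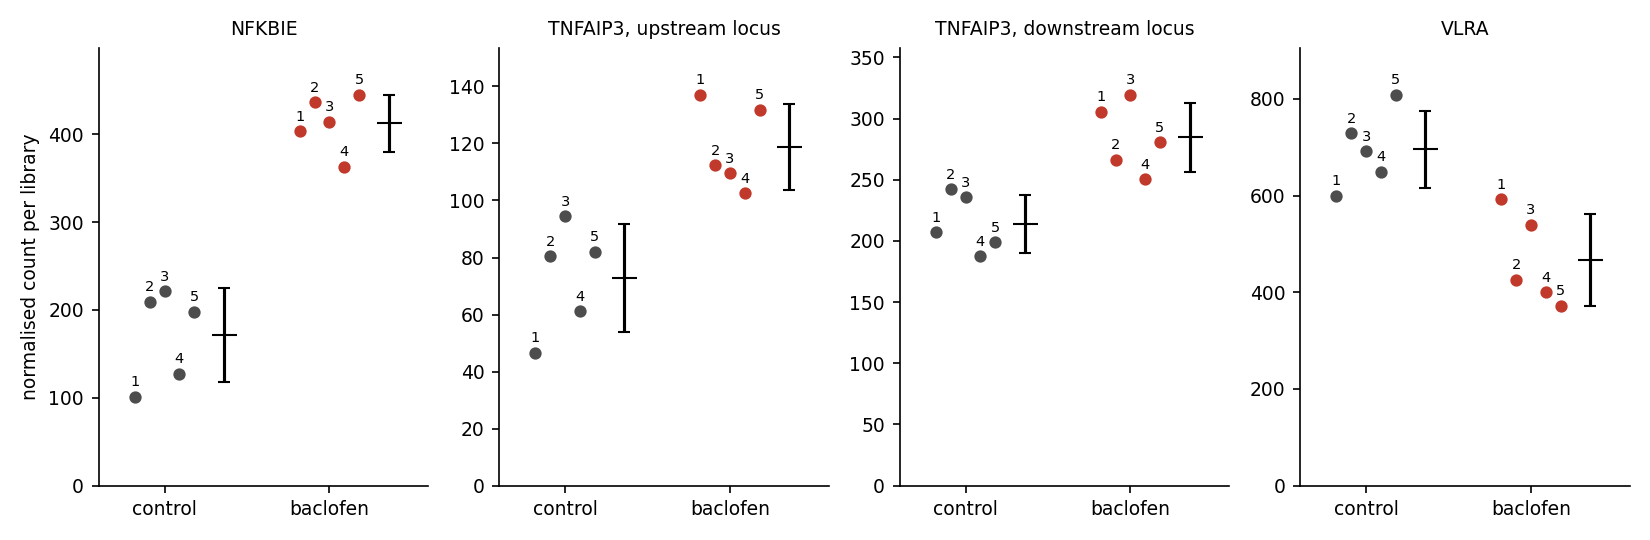
Normalised counts (counts divided by the library's size factor) of the 4 loci in each library, with control in grey and baclofen in red and the replicate number above each point. Bars are the mean ± SD of 5 libraries. In each locus the groups do not overlap: NFKBIE and the TNFAIP3 loci are higher with baclofen and VLRA is lower.

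TNFAIP3 was represented by a pair of loci on the minus strand of scaffold PIZI01000054.1, and both were higher with baclofen. On this strand the upstream locus is MSTRG.30682 (2094891 to 2103264, 7 exons, 1888 bp) and the downstream locus is MSTRG.30681 (2088498 to 2094797, 3 exons, 3692 bp). They are separated by 93 bp, and together they cover 14.8 kb with 10 exons. The downstream locus ends in an exon of 3230 bp, 87.5% of its length. A table of RefSeq genes for another lamprey assembly (UKy_Petmar_22M1.pri1.0) holds 1 gene with the symbol TNFAIP3. Whether the loci are pieces of 1 transcript was not tested, because the counts hold no reads that join them.

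The upstream locus had 137, 112, 110, 103 and 132 normalised counts in baclofen replicates 1 to 5. In control replicates 1 to 5 it had 46.7, 80.4, 94.5, 61.1 and 82.0. Control replicate 3 came closest to the baclofen libraries, and control replicates 1 and 4 were again the lowest. Means were 119 ± 14.98 and 72.9 ± 18.9 (SD, n = 5 each), with a fold change of 1.64 (95% interval 1.29 to 2.09) and a log2 fold change of 0.71 ± 0.18 (SE).

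The downstream locus had 306, 266, 320, 250 and 281 normalised counts in baclofen replicates 1 to 5. In control replicates 1 to 5 it had 207, 242, 236, 187 and 199. The groups did not overlap here either, but the gap was narrow, from 242 in the highest control to 250 in the lowest baclofen library. Means were 285 ± 28.3 and 214 ± 23.7 (SD, n = 5 each), with a fold change of 1.33 (95% interval 1.15 to 1.54) and a log2 fold change of 0.41 ± 0.11 (SE). Control replicate 1, lowest at NFKBIE and at the upstream TNFAIP3 locus, was in the middle of its group at the downstream locus.

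In the DESeq2 fit made here the TNFAIP3 loci were close to the threshold. Their adjusted p-values in DESeq2 were 0.0232 upstream and 0.0375 downstream, where the last locus inside the threshold had 0.0469 and the first outside 0.0516. In edgeR, which put 25 of 27244 loci past the threshold (0.0918%), neither was past it, with adjusted p-values of 0.251 and 0.241. The upstream locus fell short of the threshold without baclofen replicate 1 (adjusted p = 0.106), 2 (0.0607) or 5 (0.236) or control replicate 4 (0.186). Without control replicate 1 it had a log2 fold change of 0.58 and no adjusted p-value, because DESeq2 filtered it out as low. The downstream locus fell short without baclofen replicate 1 (0.134), 2 (0.0612), 3 (0.187) or 5 (0.196) or control replicate 4 (0.268) or 5 (0.215). In the fits that left out 1 library, the log2 fold change lay between 0.58 and 0.82 upstream and between 0.37 and 0.46 downstream. These ranges say little, since the loci were chosen on these libraries and each fit reuses most of them. When the counts of both loci were summed, the baclofen libraries averaged 403 ± 37.0 and the controls 287 ± 37.9 (SD, n = 5 each). The summed log2 fold change was 0.49 ± 0.10 (SE; DESeq2 adjusted p = 0.0016). Both loci had been chosen on this same contrast, so the p-value of their sum is a description and no added evidence.

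The balance between the TNFAIP3 loci differed among libraries. Per kb of exon, the upstream locus stood at 0.67 to 0.918 of the downstream one in the baclofen libraries and at 0.441 to 0.807 in the controls. The lowest value belonged to control replicate 1, and the next lowest control was replicate 4 with 0.637. On the log2 scale of normalised counts, the baclofen libraries had an upstream to downstream ratio of −1.27 ± 0.17 and the controls one of −1.59 ± 0.35 (SD, n = 5 each). These ratios overlapped between the groups. The part of the length trend of control replicate 1 in this ratio was not tested.

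VLRA moved the other way and was lower with baclofen. Its locus spans 26.7 kb of scaffold PIZI01000071.1, from 718029 to 744733 on the plus strand, with 5 exons after the 12 overlapping exon records were merged. Of its 3603 bp, 53.0% lie in 1 exon of 1908 bp. Normalised counts were 592, 426, 540, 401 and 372 in baclofen replicates 1 to 5. In control replicates 1 to 5 they were 599.9, 730, 691, 649 and 809. The groups were separated by a small margin, since control replicate 1 and baclofen replicate 1 had nearly the same level. The spread was larger with baclofen (20.4% of the mean) than in controls (11.4%), where counting error would give 4.6% and 3.9%.

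VLRA averaged 466 ± 94.97 normalised counts in baclofen libraries and 696 ± 79.5 in the controls (SD, n = 5 each). Its level with baclofen was 0.669 of that in controls (95% interval 0.564 to 0.793), or −0.58 ± 0.13 on the log2 scale (SE). In the DESeq2 fit made here, on the contrast by which the study's list was chosen, its adjusted p-value was 0.00236. Without baclofen replicate 1, the highest of its group, the log2 fold change was −0.68, and without baclofen replicate 5 it was −0.51. All 10 fits that left out a library kept it past the threshold in DESeq2, with adjusted p-values up to 0.0365. In edgeR it fell short of the threshold, with an adjusted p of 0.12. Fragments that align to several places were not counted under the counter's defaults, so a receptor assembled from repeat cassettes may be counted in part, and its level is uncertain for that reason. In tissue RNA, fewer cells that carry a transcript and less of it per cell cannot be told apart.

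The groups did not overlap at any of the 4 loci, which the choice by adjusted p-value made likely. Among all tested loci the groups did not overlap in 1.25%, higher with baclofen in 0.765% and lower in 0.483%. A larger change in size than that of NFKBIE was found in 0.15% of the tested loci, than that of the upstream TNFAIP3 locus in 0.86%, than that of VLRA in 1.81% and than that of the downstream TNFAIP3 locus in 5.11%.

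**Figure D2:**
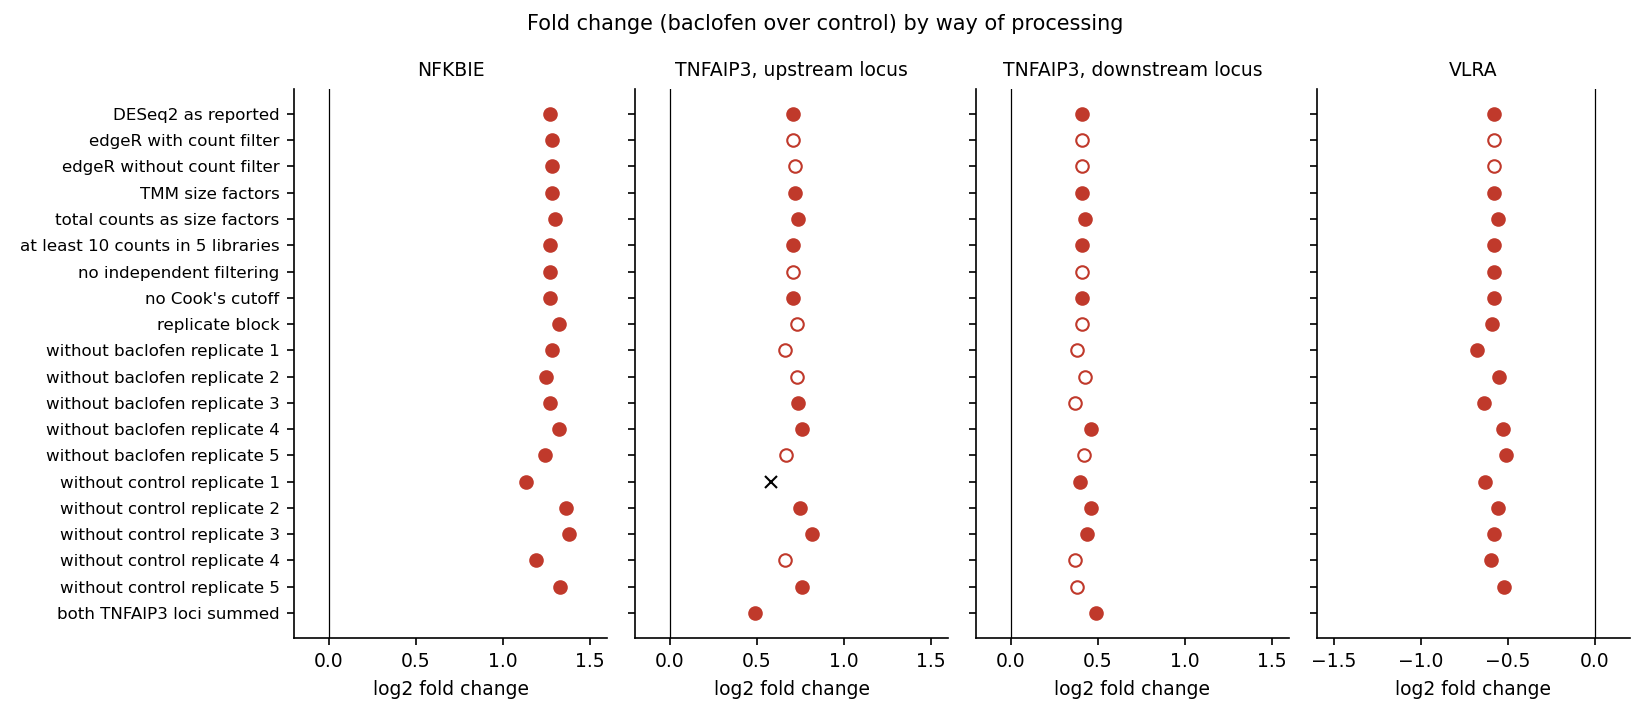
Log2 fold change (baclofen over control) of each locus under each way of processing. Filled points have an adjusted p-value under 0.05, open points do not, and the cross had none. The last line of both TNFAIP3 panels is the sum of the loci. NFKBIE stays between 1.13 and 1.38 and is filled throughout, VLRA is open only with edgeR, and the TNFAIP3 loci have many open points.

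Levels per length put VLRA first. Per kb of exon, normalised counts in controls were 193 ± 22.1 for VLRA, 58.02 ± 6.42 for the downstream TNFAIP3 locus, 56.3 ± 17.6 for NFKBIE and 38.6 ± 10.03 for the upstream TNFAIP3 locus (SD, n = 5). In every control library VLRA was above the other loci, NFKBIE was above the upstream TNFAIP3 locus, and the order of NFKBIE and the downstream TNFAIP3 locus varied. With baclofen the order was NFKBIE (135 ± 10.6), VLRA (129 ± 26.4), downstream TNFAIP3 (77.1 ± 7.66) and upstream TNFAIP3 (62.9 ± 7.94), and the order of NFKBIE and VLRA varied between libraries while that of the TNFAIP3 loci did not. Averaged over all libraries, VLRA was at percentile 79.1 of the tested loci per kb, NFKBIE at 64.9, and the TNFAIP3 loci at 53.3 (downstream) and 43.0 (upstream).

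The loci around the 4 were not part of the choice and could be tested. Within 50 kb on the same scaffold lay 24 other loci, of which 10 had an adjusted p-value in DESeq2. In edgeR 15 were tested with its count filter and 20 without it. None was past the threshold in DESeq2 or edgeR, and none had an unadjusted p under 0.05 in either. Of all tested loci, 0.345% were past the threshold and 5.8% had an unadjusted p under 0.05 in DESeq2. With so few loci, none past either cutoff was likely from these shares alone. The absence therefore says little about the neighbours. Their log2 fold changes ran from −0.20 to 0.09. In the assembly, each of the 4 loci sits within a single intron of a longer locus on its own strand and shares no exon base with it. Loci on the opposite strand, too sparsely counted for an adjusted p-value, also span the TNFAIP3 loci and VLRA. NFKBIE lies in an intron of 60.8 kb of MSTRG.17325, whose normalised counts averaged 661 ± 28.5 in baclofen libraries and 707 ± 42.5 in the controls (SD, n = 5 each). Its log2 fold change was −0.10 ± 0.07 (SE; 95% interval −0.23 to 0.04; DESeq2 adjusted p = 0.989). The interval of this surrounding locus lay below that of NFKBIE, 0.94 to 1.61. Since NFKBIE was chosen for its difference between the groups, such a gap was likely and is a description only.

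The TNFAIP3 loci lie in an intron of MSTRG.30665, an assembled locus spanning 1056 kb, whose log2 fold change was 0.02 ± 0.18 (SE; 95% interval −0.33 to 0.37; DESeq2 adjusted p = 0.999). The nearest locus upstream on their strand, MSTRG.30683, has its downstream end 2934 bp from the upstream TNFAIP3 locus. Its normalised counts averaged 1164 ± 44.2 in baclofen libraries and 1241 ± 48.2 in the controls (SD, n = 5 each), and its log2 fold change was −0.09 ± 0.05 (SE; adjusted p in DESeq2 = 0.943). On the other side, MSTRG.30673 lies 4248 bp from the downstream TNFAIP3 locus and had a log2 fold change of −0.03 ± 0.26 (SE; adjusted p in DESeq2 = 0.999). Its interval of −0.54 to 0.48 is wide and includes a change of the size seen at the downstream TNFAIP3 locus. A change of that size could therefore not be excluded for MSTRG.30673.

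NFKBIE is flanked by MSTRG.17324 and MSTRG.17327, both on the opposite strand, 21751 and 23280 bp away. Their log2 fold changes were −0.04 ± 0.06 and −0.09 ± 0.05 (SE; DESeq2 adjusted p = 0.998 and 0.939). Of the 6 loci near VLRA only MSTRG.34217, 29438 bp away on the same strand, was tested, and its normalised counts averaged 200.5 ± 8.77 in baclofen libraries and 200.2 ± 20.3 in the controls (SD, n = 5 each; DESeq2 adjusted p = 0.999). The loci nearest to VLRA on either side, MSTRG.34218 and MSTRG.34220, had mean normalised counts of 14.3 and 4.28, too few for an adjusted p-value. The locus on the same strand whose intron holds VLRA, MSTRG.34212, had a mean of 8.24.

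**Figure D3:**
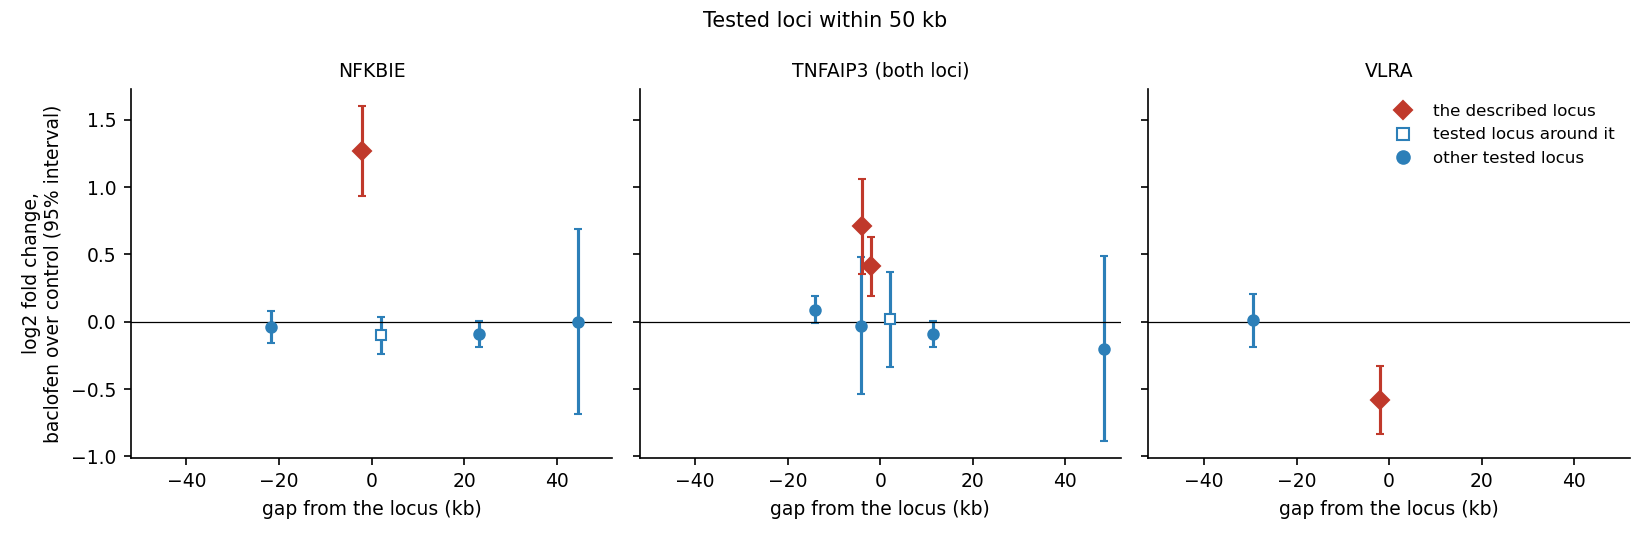
Log2 fold change (baclofen over control) with its 95% interval for the described loci (red diamonds) and the tested loci within 50 kb, by the gap to the described locus in kb; for TNFAIP3 the gap is to the downstream locus. Open squares are loci that span the described one, and symbols at gap 0 are drawn slightly apart. The other loci lie between −0.20 and 0.09, while NFKBIE lies at 1.27 and VLRA at −0.58. The described loci were chosen for their difference between the groups, so they were likely to lie apart.

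Whether the loci vary together between libraries of the same group was not part of their choice. For each pair of the 4 loci, the deviations of log2(normalised count + 1) from the group mean were correlated over 10 libraries, with an exact two-sided permutation test over all 14400 arrangements within groups and Benjamini-Hochberg adjustment over the 6 pairs. NFKBIE and the upstream TNFAIP3 locus deviated together: Pearson's r was 0.92 (exact permutation p = 0.00479, adjusted p = 0.0288) and Spearman's rho 0.81 (exact permutation p = 0.0367, adjusted p = 0.22). Control replicates 1 and 4 were low at both loci, by 0.69 and 0.36 on the log2 scale at NFKBIE and by 0.59 and 0.21 at the upstream TNFAIP3 locus. Control replicates 2, 3 and 5 were high at both. Without control replicates 1 and 4, the libraries farthest from the median, r was 0.56, so the relation rested largely on them. The adjusted permutation p was above 0.05 in 7 of the 10 sets that left out 1 library, and reached 0.144 without control replicate 1 and without control replicate 4.

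No other pair passed the test. The TNFAIP3 loci had an r of 0.48 with each other (rho 0.48; exact permutation p = 0.209 and 0.235; adjusted p = 0.218 and 0.289), and 0.60 without baclofen replicate 3 and control replicate 2. NFKBIE and the downstream TNFAIP3 locus had an r of 0.50 (rho 0.53; exact permutation p = 0.218 and 0.206; adjusted p = 0.218 and 0.289), and 0.45 without control replicates 1 and 4. VLRA had an r of 0.37 with NFKBIE, 0.52 with the downstream and 0.44 with the upstream TNFAIP3 locus (rho 0.26, 0.41 and 0.53). The exact permutation p-values of r were 0.178, 0.141 and 0.13, each 0.218 when adjusted, and those of rho were 0.4, 0.241 and 0.0923 (adjusted 0.4, 0.289 and 0.277). Without the libraries farthest from the median these r were −0.22, 0.40 and 0.40, so that of NFKBIE with VLRA turned its direction without control replicates 1 and 4.

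**Figure D4:**
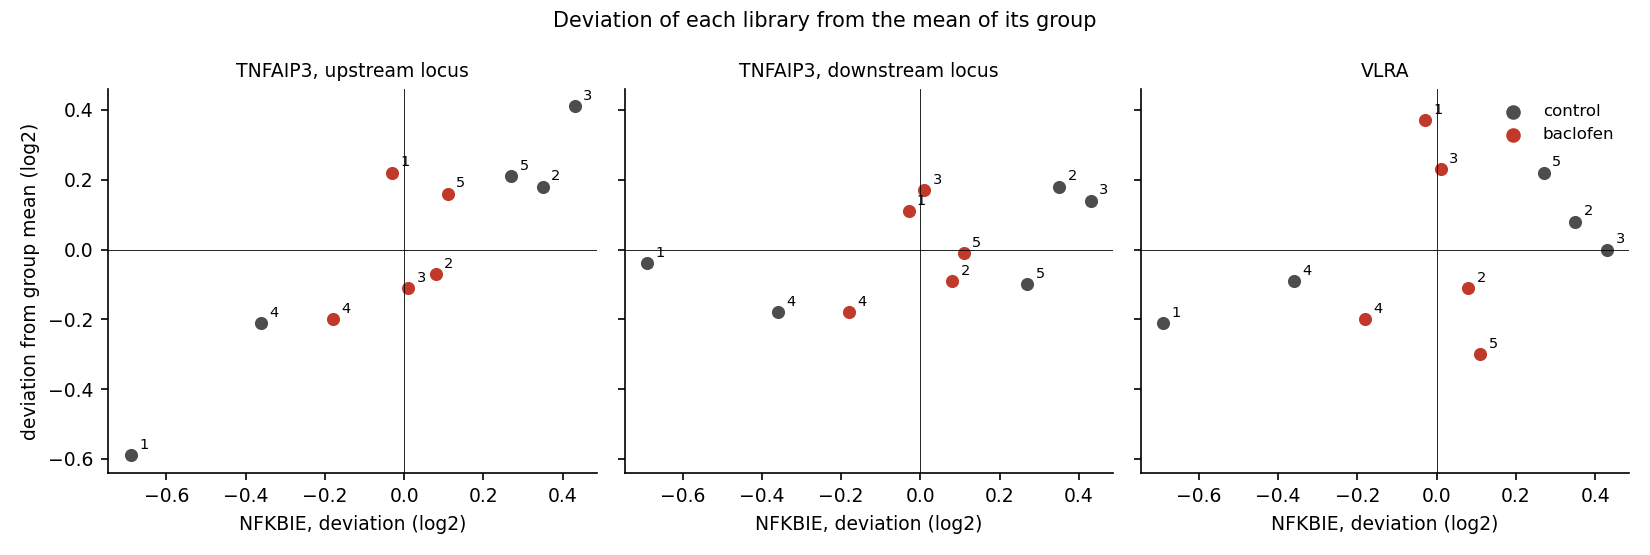
Deviation of each library from the mean of its group (log2 scale, control in grey and baclofen in red, replicate numbers beside the points), with NFKBIE on the x axis and the other loci on the y axes. The upstream TNFAIP3 locus had an r of 0.92 with NFKBIE, with control replicates 1 and 4 at the low end, and 0.56 without them. Spearman's rho for this pair did not pass the permutation test (adjusted p = 0.22). The downstream locus (r = 0.50) and VLRA (r = 0.37) were not shown to follow NFKBIE.

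Among 70 other loci that the study's lists name, the closest to NFKBIE in these deviations was TSC22D3 (MSTRG.29652; r = 0.95 over 10 libraries), a gene induced by glucocorticoids in mammals. Of 16374 loci averaging 50 normalised counts or more, only 4 had a higher r, and 12 had a higher r than the upstream TNFAIP3 locus. A higher r than that of the downstream TNFAIP3 locus was found in 3559 of them, and than that of VLRA in 5196. TSC22D3 had 1010, 1107, 1046, 920 and 1151 normalised counts in baclofen replicates 1 to 5. In control replicates 1 to 5 it had 238, 729, 638, 287 and 442, so that the same control libraries, 1 and 4, were low. The part of these libraries in the r of 0.95 was not tested. The next closest to NFKBIE were a locus annotated as a jockey-like reverse transcriptase (MSTRG.37639; r = 0.91) and KLF7 (r = 0.84).

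The upstream TNFAIP3 locus was likewise closest to TSC22D3 (r = 0.84), TAT (0.82) and PIM3 (0.78). The downstream locus was closest to tryptophan 2,3-dioxygenase (r = 0.81), GTF2F2 (0.77) and vimentin (VIM; 0.72). VLRA was closest to SQOR (r = 0.83), TAT (0.80) and SLC4A4 (0.80), each over 10 libraries. Of the 16374 loci, 156 had a higher r with the upstream TNFAIP3 locus than the first of these, 64 with the downstream locus and 89 with VLRA, so the named loci were not the most alike.

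Besides these loci, 4 other signalling regulators were picked by name from the study's list, and they do not stand for all signalling loci in it. They are TSC22D3, DUSP1 (a phosphatase that inactivates MAP kinases), TRIB2 (a pseudokinase) and SMAD6 (an inhibitor of BMP signalling). All 4 of 4 were past the threshold in DESeq2 and higher with baclofen, as were 64 of the 82 loci past it. Of all tested loci, 0.269% were past it and higher. Their median log2 fold change was 0.43 and that of all tested loci −0.005. They were selected on these same libraries, so neither the count nor the median is independent evidence. TSC22D3 had a log2 fold change of 1.17 ± 0.30, DUSP1 0.45 ± 0.10, TRIB2 0.41 ± 0.09 and SMAD6 0.36 ± 0.09 (SE). TSC22D3 was close to the threshold (DESeq2 adjusted p = 0.0356). The groups overlapped at TRIB2, with 659 to 857 normalised counts with baclofen and 519 to 685 in controls. At TSC22D3, DUSP1 and SMAD6 they did not.

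The receptors and surface proteins of leukocytes in the same list were divided. PTPRC (CD45), a phosphatase on the surface of leukocytes, and TLR2, a receptor of microbial lipoproteins, were higher with baclofen. CD62L (L-selectin), an adhesion molecule of leukocytes, and Pema-SRCR, a protein with scavenger receptor domains, were lower, as VLRA was. PTPRC had 280 to 376.5 normalised counts in the baclofen libraries (median 307) and 182 to 256 in controls (median 203), with no overlap. TLR2 had 193 to 213 (median 194) and 118 to 167 (median 142), also without overlap.

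CD62L had 28.01 to 63.0 normalised counts with baclofen (median 40.2) and 42.7 to 129 in controls (median 109), and the groups overlapped through control replicate 3. Pema-SRCR had 18.9 to 43.4 (median 23.9) and 41.5 to 92.5 (median 72.5), overlapping through control replicate 5. Log2 fold changes were 0.56 ± 0.12 for PTPRC, 0.50 ± 0.12 for TLR2, −1.24 ± 0.27 for CD62L and −1.28 ± 0.27 for Pema-SRCR (SE). All 4 of 4 were past the threshold, 2 in each direction, as they had to be for loci of that list. Of all tested loci, 0.345% were past it in either direction.

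As markers of leukocytes beside VLRA, PTPRC, CD62L and TLR2 were detected in every library. Their summed normalised counts were 514 to 608 with baclofen and 399 to 530 in controls. The 3 markers had themselves been selected for differing between these libraries, 2 higher and 1 lower with baclofen, so their sum is no measure of leukocyte numbers. Within groups, the deviations of VLRA were not shown to follow those of PTPRC (r = −0.16, rho = −0.02), CD62L (r = 0.48, rho = 0.62) or TLR2 (r = 0.13, rho = 0.08). In exact permutation tests within groups the p-values of r were 0.657, 0.146 and 0.667, and 0.667, 0.439 and 0.667 when adjusted over these 3 pairs. For rho they were 0.973, 0.0613 and 0.823, and 0.973, 0.184 and 0.973 when adjusted. Without baclofen replicates 1 and 3, r was −0.17, 0.07 and 0.13. The choice of these 3 relations followed a first look at the data. The part of leukocyte numbers in the level of VLRA was not tested.

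**Figure D5:**
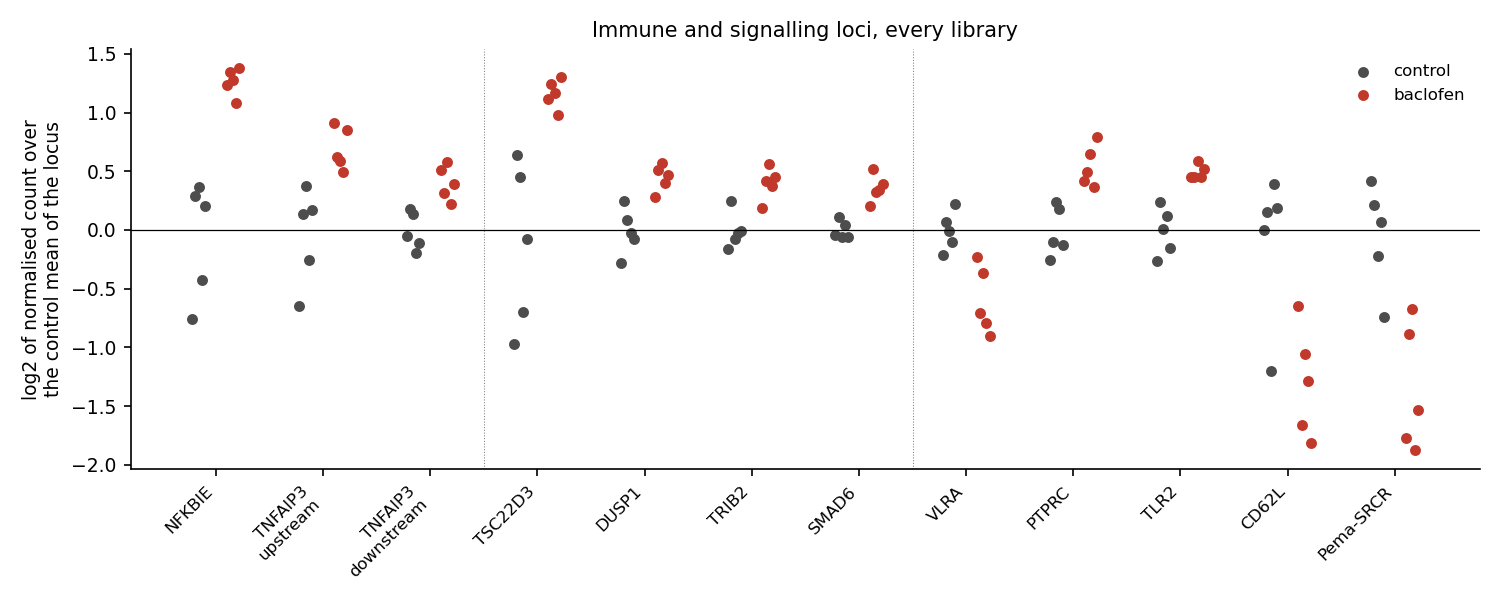
Log2 of the normalised count in each library over the control mean of the locus (control in grey, baclofen in red). The left group holds the NF-kappa-B inhibitors, the middle group the named signalling regulators and the right group VLRA with the leukocyte loci. PTPRC and TLR2 lie above their controls, and VLRA, CD62L and Pema-SRCR lie lower, with overlap in CD62L and Pema-SRCR. In the middle group TRIB2 overlaps as well.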

How the data were processed

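RNA-Seq counts of 5 baclofen and 5 control libraries were analysed. Reads were trimmed by the authors with Fastp, aligned with STAR to Pmar_germline 1.0, assembled into loci with StringTie and counted per locus and strand with featureCounts (versions not given in the sources used here). The deposited values are raw counts of fragments, not normalised. The exon lists of 2 loci, broken over lines, were rejoined. Gene names came only from the study's lists. None of the values in these lists was used.

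Counts were compared with DESeq2 1.42.0 in R 4.3.3 over all loci (Wald test of treatment with no covariate, size factors by the median of ratios, Benjamini-Hochberg adjustment, threshold 0.05). The independent filter on low counts was left at the default of DESeq2, which is not tuned to this threshold. A locus is called tested where it had an adjusted p-value. The 27938 loci below a mean normalised count of 14.35 and 84 with an outlying count had none. The alternatives were edgeR 4.0.16 (quasi-likelihood, TMM factors), other scalings and filters, no cutoff on Cook's distance, a block for the replicate number, summed TNFAIP3 loci, and each library left out. Both fits were run on counts simulated from the means and dispersions of the DESeq2 fit. Such counts do not test how well the fits suit these libraries. Intervals are log2 fold change ± 1.96 SE. Counting error is that of the raw counts alone.

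The loci, lists and tests were chosen with earlier results of these data known. Described were the 4 loci, their neighbours within 50 kb (the nearest on each side, those around them and any past the threshold), the 3 most alike named loci for each, and named loci of immune role. Markers of neurons, glia and leukocytes were limited to loci with a name.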

Additional observations from a re-analysis of the deposited data

How the results depend on the processing

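The number of loci past the threshold, 82, was 25 in edgeR with its count filter and 30 without it, and 49 (without baclofen replicate 5) to 426 (without control replicate 1) when 1 library was left out. With the replicate number as a block it was 45. Same-numbered libraries did not deviate together (correlations of −0.07 to −0.01), and the labels do not say whether they share more than a number. The downstream TNFAIP3 locus fell short of the threshold in edgeR with and without the filter (log2 fold change 0.41 in both, adjusted p = 0.241 and 0.258), without independent filtering (0.41, adjusted p = 0.0815) and with the replicate block (0.41, adjusted p = 0.455). The upstream locus did so in the same settings, with 0.71 (adjusted p = 0.251), 0.72 (0.248), 0.71 (0.0504) and 0.73 (0.323). VLRA did so only in edgeR, with −0.58 with and without the filter (adjusted p = 0.12 and 0.0602). NFKBIE was past the threshold in every fit. Fits that left out 1 library gave 1.13 to 1.38 for NFKBIE, 0.37 to 0.46 and 0.58 to 0.82 for the downstream and upstream TNFAIP3 loci (0.66 to 0.73 upstream and 0.37 to 0.43 downstream where they fell short) and −0.68 to −0.51 for VLRA. No locus changed direction, which says little, since the loci were selected on these libraries. The number of neighbouring loci past the threshold was 0 in all 21 alternatives, within 10 and 100 kb too, which so few tested loci made likely. In DESeq2 with total counts as size factors, 1 neighbour within 50 kb had an unadjusted p under 0.05. The same count held without baclofen replicate 2, without baclofen replicate 3 and without control replicate 1. The number of correlated pairs, 1, was 0 with Spearman's rho and 0 to 1 without 1 library; TMM factors, total counts and a pseudocount of 10 left it at 1. The upstream TNFAIP3 locus had 55 to 160 counts in a library, and the loci nearest to VLRA had too few for an adjusted p-value.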
